A study of Homo sapiens with 12 samples.

Results

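HCT116 cells, a human colorectal carcinoma line that carries an oncogenic RAS allele, were profiled after 3 days in 25 ng/ml doxycycline or in vehicle. The comparison took the 3 arrays titled HCT116_ctl_5e+5_dox_d3 and the 3 titled HCT116_ctl_5e+5_veh_d3, 6 of the 12 arrays used here. The labels and methods do not spell out what the control tag in those titles stands for, although the methods describe HCT116 cells stably carrying doxycycline-inducible short hairpin RNA vectors against RAS. The other 6 arrays were 3 each of the isogenic HCT116 derivatives Hke3 and Hkh-2, which carry wild-type RAS after homologous recombination and were cultured in basal condition. They served to estimate the spread, to give a scale and, through the filter on low signals, to help set which genes were tested. All cells were grown in DMEM with serum and glutamine. Neither the labels nor the methods say whether the replicates were separate cultures, so the p-values rest on the spread from array to array, and that spread may be technical only.

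Doxycycline is a tetracycline antibiotic that blocks the bacterial ribosome, and it is used in mammalian cells to switch on tetracycline-controlled vectors. Mitochondria have ribosomes of bacterial descent, so the drug can also slow the synthesis of the respiratory chain subunits that mitochondrial DNA encodes. Stressed mitochondria can signal through the transcription factor ATF4, which induces genes for amino acid supply. The drug also binds divalent metal ions and inhibits matrix metalloproteinases. The comparison asks how the transcriptome of these cells differs with doxycycline, and how large an effect the 6 arrays could have missed. If the control cells carry an inducible vector, doxycycline would also switch it on. The drug and such a vector could not be told apart here.

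No gene was called higher and no gene was called lower with doxycycline. The calls were made with limma on log2 signals at a Benjamini-Hochberg adjusted p under 0.05, over 12852 genes whose mean reached 6 in at least 1 of the 4 groups, so percent called was 0 in each direction. In 338 of these genes both compared groups lay under 6, and Hke3 or Hkh-2 alone brought them in. The smallest unadjusted p was 0.00132, for CCDC150, and its adjusted p from limma was 0.9999. At an unadjusted p under 0.05 there were 127 genes, 58 higher and 69 lower, or 0.988% of those tested. This share lies below the fraction of 0.05 that uniformly distributed p-values would give. When arrays were paired by their replicate numbers, with only these 6 arrays in the fit, limma again called 0 genes, and 216 genes (1.68%) had an unadjusted p under 0.05. Of these, 100 were among the 127.

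The differences themselves were small. Doxycycline minus vehicle ran from -0.50 (CTXN1) to 0.40 on the log2 scale, its median absolute size was 0.054, and 0 genes exceeded 0.5. Only 147 genes passed 0.25, of which 29 were higher and 118 were lower. Without vehicle replicate 2, an array described below, 40 were higher and 83 lower. In that comparison 5 genes exceeded 0.5, with FAM76B the most negative at -0.88. That value came from 1 of its 4 probe sets. With every array kept, this probe set was lower with doxycycline and the other 3 were higher. On the brightest of those 3, vehicle replicates 1 and 3 read 8.23 and 7.88, against 8.30, 7.93 and 7.90 with doxycycline. The 3 doxycycline arrays lay above all 3 vehicle arrays in 315 genes (2.45%) and below them in 246 (1.91%). All 3 numbered pairs were higher with doxycycline in 1465 genes (11.4%) and lower in 1111 (8.64%).

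**Figure D1:**
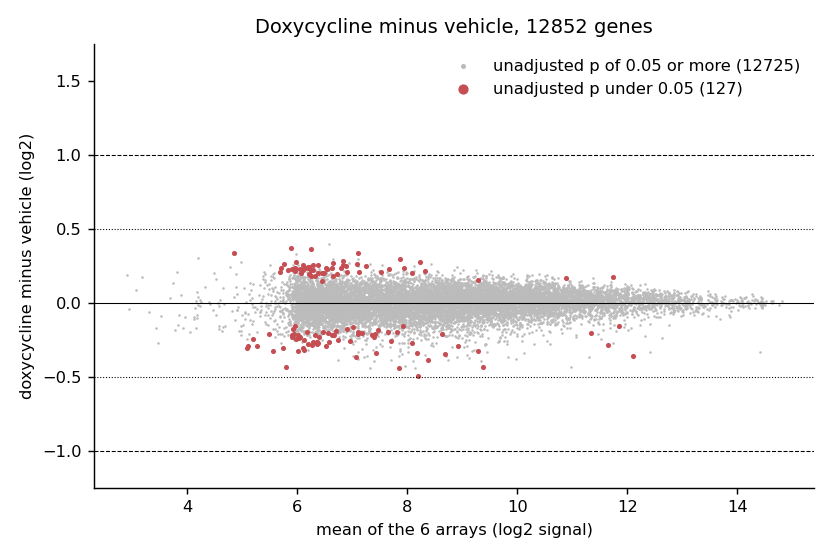
Doxycycline minus vehicle on the log2 scale against the mean of the 6 arrays, with 1 point per gene for 12852 genes. Dotted and dashed lines mark differences of 0.5 and 1, and red points are the 127 genes with an unadjusted p under 0.05. All points lie between the dotted lines, and 85 of the red points have a mean under 7.

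The arrays bounded what could have been missed. For each gene the 95% confidence interval of the difference was taken from limma, and the end farther from 0 was used as the bound on its size. The median bound was 0.274, a 1.21-fold change, and 95% of genes had a bound at or under 0.502, or 1.42-fold. The whole interval lay inside ±0.5 (1.41-fold) for 12194 genes, 94.9% of those tested, and inside ±1 (2-fold) for 12839. In the paired fit, 12539 genes (97.6%) lay inside ±0.5 and 12847 inside ±1, with a median bound of 0.249. These intervals cover 1 gene at a time. Widened by Bonferroni so as to cover all genes together, the interval lay inside ±1 for 9549 genes (74.3%), and its median half-width was 0.759. Fits with fewer arrays did worse on that scale, with 5528 genes inside ±1 on the 6 arrays alone and 1765 in the paired fit. For the remaining genes a 2-fold change was not bounded in that stricter sense.

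**Figure D2:**
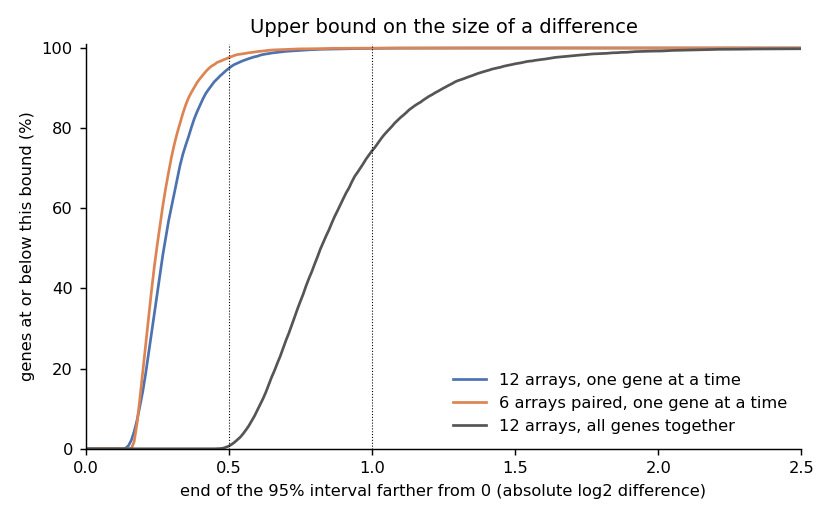
Percent of the 12852 genes (vertical axis) whose bound, the end of the 95% interval farther from 0, was at or below the absolute log2 difference on the horizontal axis. Blue is the fit to 12 arrays, orange the paired fit to 6 arrays, and grey the fit to 12 arrays with intervals widened to cover all genes together. Dotted lines at 0.5 and 1 cross the blue line at 94.9% and near its top, and the grey line reaches 74.3% at 1.

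The bounds were tighter for strongly expressed genes. The median half-width of the interval was 0.160 for the 634 genes with a mean over 12, against 0.223 for the 4802 genes between 6 and 8. Genes with an unadjusted p under 0.05 were mostly dim. Of the 127, 85 (66.9%) had a mean under 7, a range that held 24.2% of all genes tested. Among the 634 brightest genes 1 had such a p.

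A total of 13 genes had an interval that reached beyond ±1, and in several of them 1 array lay far from the rest. FAM76B read 9.16, 6.72 and 8.90 in vehicle replicates 1, 2 and 3 and 8.13, 8.14 and 8.18 with doxycycline. Its interval thus ran from -1.50 to 1.29, the widest of all. These values are from 1 of its 4 probe sets, which was lower with doxycycline, while the other 3 were higher. PTMS, which encodes parathymosin, read 9.32 in vehicle replicate 2 and between 7.61 and 8.15 on the other 5 arrays. SOD2, the mitochondrial superoxide dismutase, read 9.57, 8.34 and 9.41 in vehicle and 8.89, 8.78 and 8.93 with doxycycline. Vehicle replicates 1 and 3 thus lay above every doxycycline array, and vehicle replicate 2 lay below them all. EGR1, CHAC1 and SLC7A11 differed between replicate numbers in both groups, as described below.

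Vehicle replicate 2 stood apart from the other arrays. Its correlation with the other vehicle arrays was 0.9944 and 0.9947 over all probe sets, while the lowest within the doxycycline group was 0.9965. The BioC hybridisation control read 8.57 on it and between 9.78 and 10.1 on the other 5 arrays. BioB, another such control, read 8.30 on it and between 8.24 and 8.52 elsewhere. The difference between the 5′ and 3′ actin control probe sets, which is read as a sign of RNA integrity, was -0.48 on it and between -0.94 and -0.71 elsewhere. The actin gap was thus smallest on this array. For GAPDH the same difference was -0.030 on it, the lowest value, and between 0.011 and 0.091 elsewhere. The actin and GAPDH controls thus went in opposite directions, and RNA quality as a reason was not tested. The median SD over genes was 0.124 among vehicle arrays, 0.0749 among doxycycline arrays and 0.0583 between vehicle replicates 1 and 3. Leaving out vehicle replicate 2 and Hke3 replicate 3, the arrays that stood apart in their groups, limma called 0 genes, 301 had an unadjusted p under 0.05, and 12643 lay inside ±0.5.

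The genes nearest to a call were named by rule from both ends of the list. Most of them had a low signal, and 9 of the 20 had other probe sets that moved in the opposite direction. None passed the adjusted threshold, so the values that follow are descriptions.

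CCDC150, a coiled-coil protein gene, read 6.56, 6.49 and 6.50 in vehicle and 6.75, 6.76 and 6.85 with doxycycline. The groups did not overlap, and the difference was 0.27 ± 0.065 (SE, n = 3 per group; interval 0.13 to 0.41). Of its 3 probe sets 2 were higher and 1 lower. SPATA4, a gene associated with the testis, read 6.06, 5.97 and 6.04 against 6.22, 6.21 and 6.33, a difference of 0.23 from a single probe set. NHLRC2 differed by 0.28, but 2 of its probe sets were higher and 2 lower. CST4, a salivary cystatin, differed by 0.36 and the long noncoding RNA LINC01732 by 0.37, the largest differences among the genes that did not overlap upwards. For LINC01732 the highest vehicle array, 5.89, lay just under the lowest doxycycline array, 5.91. C6orf52 differed by 0.27, and all 3 of its probe sets were higher, although its highest vehicle array, 7.109, nearly met its lowest doxycycline array, 7.110. In the paired fit the smallest p among higher genes, 0.00183 by limma, belonged to NAV3, a neuron navigator gene, at 4.80, 4.53 and 4.68 against 5.10, 4.89 and 5.04. NAV3 was under 6 in both groups and was tested only through its level in Hke3 or Hkh-2, and 2 of the 5 probe sets of NAV3 were lower. CEP164, a protein of the centriole with 1 of 3 probe sets lower, completed the paired list with PTGR2 and ZNF138, each higher by 0.29 or 0.30 in the mean. The vehicle and doxycycline arrays overlapped for PTGR2 and ZNF138.

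Among lower genes DCLK2, a doublecortin-like kinase, read 6.11, 6.05 and 5.88 in vehicle and 5.78, 5.31 and 5.64 with doxycycline. Its difference was -0.43 ± 0.12 (SE, n = 3 per group; interval -0.70 to -0.17), with 1 of 3 probe sets higher. FOXO4, a forkhead transcription factor, read 6.20, 6.22 and 6.10 against 5.90, 5.98 and 5.94, a difference of -0.23. FABP6, the ileal bile acid binding protein, was the tightest within groups. It read 6.28, 6.26 and 6.24 in vehicle and 6.01, 5.95 and 5.90 with doxycycline, for a difference of -0.30, but 1 of its 3 probe sets was higher. SYT16 differed by -0.29, YPEL3 by -0.26 and CFAP73 by -0.38, and 1 of the 2 probe sets of CFAP73 was higher. In the paired fit SAMD12, with 1 probe set in each direction, and EPB41L1, with 3 of 4 probe sets higher, also had small p-values, at differences of -0.32 and -0.44 with overlapping arrays. RPL27A, a cytosolic ribosomal protein gene, read 9.73, 9.52 and 9.52 against 9.03, 9.24 and 9.20 on its single probe set, a difference of -0.43. CTXN1 had the most negative difference, -0.50, with vehicle arrays at 8.29, 9.04 and 8.002, doxycycline arrays 1 and 3 at 7.92 and doxycycline array 2 just under 8. Its value in vehicle replicate 2 was 0.75 above the next.

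**Figure D3:**
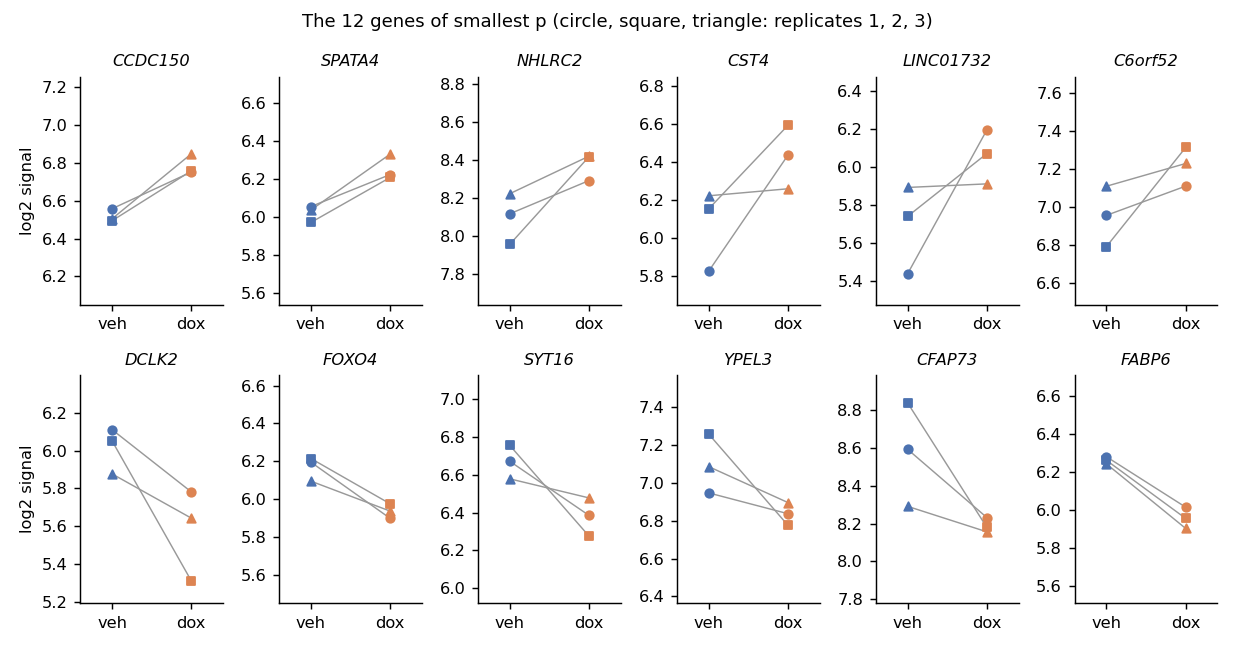
Log2 signal on each array for the 6 higher genes (top row) and the 6 lower genes (bottom row) of smallest unadjusted p, with vehicle in blue and doxycycline in orange. Each panel spans the same range, lines join arrays of the same replicate number, and in every panel the groups do not overlap, with a margin under 0.001 for C6orf52.

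Genes of the processes that doxycycline can touch were then read list by list. The 32 lists held 787 genes, of which 720 had at least 1 probe set naming them alone, and 668 were tested. None was called, and 2 had an unadjusted p under 0.05 (0.299%), beside 0.988% of all genes tested. They were ANTXR2, an anthrax toxin receptor, at -0.22, and MX2, an interferon-induced GTPase, at -0.31, both with signals near 6. In the paired limma fit 6 of the 668 had an unadjusted p under 0.05, beside 1.68% of all genes tested, ANTXR2 and MX2 among them, with XBP1, PKM, EGR1 and PPP1R15A. Intervals lay inside ±0.5 for 619 of the 668 and inside ±1 for 664. Over the 30 lists with at least 3 members tested, medians ran from -0.051 to 0.032, beside 0.0049 for all genes. Of the 106 list members chosen by rule to be named, 42 had probe sets in both directions, as did 63.2% of all tested genes with more than 1 probe set. Values below are those of the probe set with the highest mean.

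The mitochondrial ribosome is the target closest to the drug's action. The arrays measure RNA levels, so whether mitochondrial protein synthesis was slowed was not tested. Of 78 mitochondrial ribosomal protein genes 76 were tested, 0 were called, and 49 were higher with a median of 0.016. Their mean signal was 10.99, 11.01 and 10.99 in vehicle and 11.00, 11.00 and 11.01 with doxycycline, so the groups overlapped. MRPL3, of the large subunit, differed by 0.067 (interval -0.068 to 0.20), and MRPS12, of the small subunit, by -0.062 (-0.27 to 0.14). The arrays of MRPS12 did not overlap, as its lowest vehicle array was 11.490 and its highest doxycycline array 11.485. All 4 of its probe sets were lower. Intervals lay inside ±0.5 for 74 of the 76. Among 41 factors of mitochondrial translation and transcription the median was 0.004 with 0 called. TFAM, which packages mitochondrial DNA, differed by -0.025 (-0.23 to 0.18) and TUFM, the mitochondrial elongation factor, by -0.032 (-0.41 to 0.34), each with probe sets in both directions.

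Nuclear genes for respiratory chain subunits were equally close to 0, with a median of 0.020 over 68 tested and 67 intervals inside ±0.5. COX4I1, a subunit of cytochrome c oxidase, read 13.50, 13.47 and 13.49 in vehicle and 13.55, 13.52 and 13.53 with doxycycline. Its arrays did not overlap, yet the difference was only 0.044 (-0.085 to 0.17), and 1 of its 4 probe sets was lower. ATP5F1B, the catalytic subunit of ATP synthase, differed by -0.032. The 17 mitochondrial chaperones and proteases had a median of 0.018 and all 17 intervals inside ±0.5. HSPE1 differed by 0.015 and LONP1, the matrix protease, by 0.005, with an interval of -0.37 to 0.38.

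Of the 13 protein genes of mitochondrial DNA, 7 had a probe set that names them alone. This list was added after the names on the array were seen, and nuclear copies of mitochondrial DNA may share such probes. COX2, a cytochrome c oxidase subunit, read 14.39, 14.49 and 14.42 in vehicle and 14.36, 14.43 and 14.61 with doxycycline, a difference of 0.032 (-0.15 to 0.21). ATP6, of ATP synthase, differed by 0.060 (-0.15 to 0.27). COX1 read 14.40, 14.67 and 14.68 in vehicle and 14.65, 13.27 and 14.83 with doxycycline. Replicate 2 with doxycycline was thus 1.13 below any other array, while the other 2 doxycycline arrays were within or above the vehicle range. The difference of -0.33 had an interval of -0.96 to 0.29. COX1 had 1 probe set, so the drop had no second reading. GNL3L, a nucleolar GTPase, was low on the same array at 8.22, against 9.36 to 9.76 elsewhere, and its other 3 probe sets were lowest there too. On that array 3 genes lay over 1 below both others of the group, and on vehicle replicate 2 there were 14 that lay over 1 above or below.

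No stress pathway gene was called. The 35 tested ATF4 response genes had a median of -0.005, and 17 were higher. ATF4 itself read 13.09, 13.00 and 12.72 in vehicle and 12.94, 13.02 and 12.71 with doxycycline, a difference of -0.046 (-0.27 to 0.17). DDIT3, the stress transcription factor CHOP, differed by -0.039 (-0.40 to 0.32) and ASNS, asparagine synthetase, by 0.030 (-0.69 to 0.75). Pairing by replicate number narrowed these bounds, to -0.19 to 0.25 for ASNS, and put all 35 ATF4 response genes inside ±0.5, against 28 unpaired. Endoplasmic reticulum stress genes had a median of 0.032 over 14. XBP1, a transcription factor of the unfolded protein response, read 8.96, 8.74 and 9.01 against 9.15, 9.14 and 9.08, a difference of 0.22 (-0.022 to 0.46). It had an unadjusted p of 0.040 in the paired limma fit, and its other probe set was lower. HSPA5, the chaperone BiP, differed by 0.000 (-0.17 to 0.17). Heat shock genes (10 tested), NRF2 targets (20) and metal handling genes (16) had medians of 0.005, -0.004 and 0.020. The metallothionein MT2A differed by -0.046 (-0.25 to 0.16), and HMOX1, heme oxygenase, by -0.14 (-0.49 to 0.21). HMOX1 read 8.77 in vehicle replicate 2 and between 8.18 and 8.31 on every other array.

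Glycolysis and glucose uptake had a median of -0.032, and 6 of 21 were higher. PKM, pyruvate kinase, had the lowest value of that list at -0.33 (-0.71 to 0.056) and an unadjusted p of 0.044 in the paired limma fit. LDHA differed by 0.015 and the glucose transporter SLC2A1 by -0.008 (-0.24 to 0.23). Hypoxia-inducible genes had a median of 0.018 over 20, all inside ±0.5. Among 13 tested matrix metalloproteinases and inhibitors 2 were higher and the median was -0.032. TIMP1, an inhibitor of these enzymes, differed by -0.054 (-0.30 to 0.19).

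**Figure D4:**
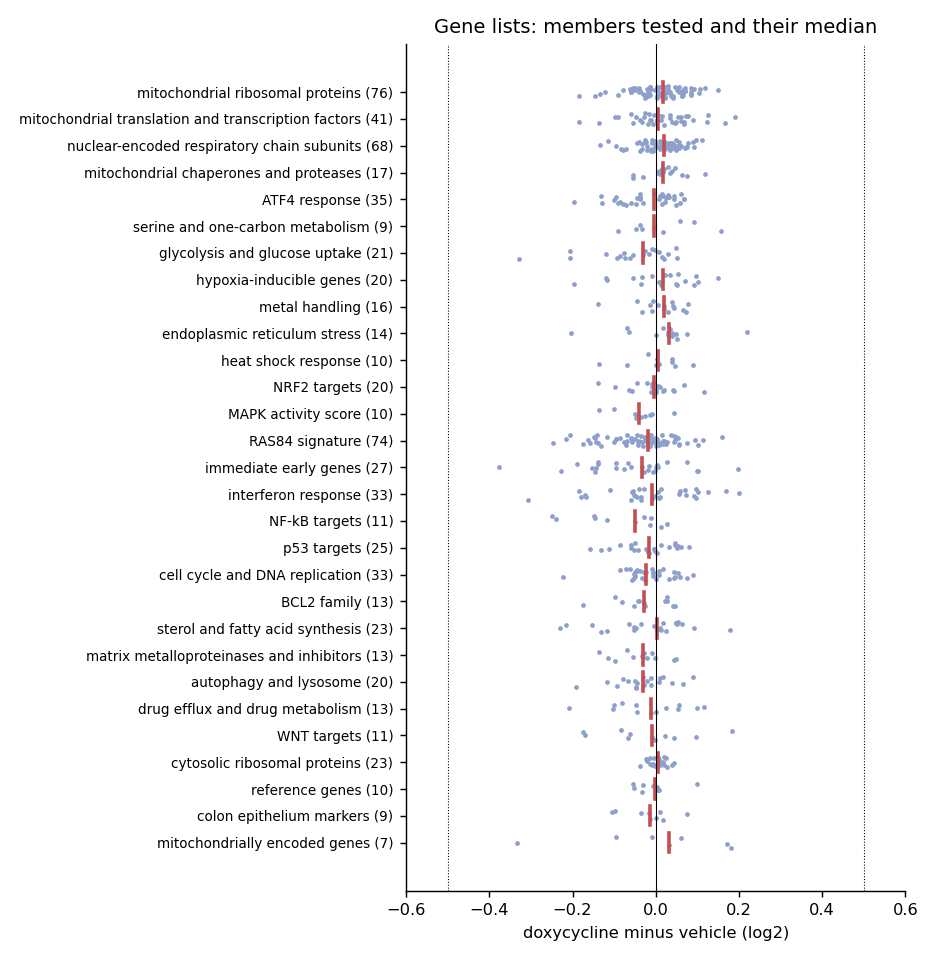
Doxycycline minus vehicle on the log2 scale for the tested members (points) of 29 gene lists, with the number tested in brackets and a red bar at each list's median; markers of other cell types are left out. Every point lies inside the dotted lines at ±0.5, and the medians lie between -0.051 and 0.032.

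RAS and ERK readouts matter here because the inducer is used with vectors that act on RAS. The RAS84 signature is the study's own list of genes for RAS pathway activity. Its mean signal was 9.43, 9.40 and 9.40 in vehicle and 9.39, 9.35 and 9.38 with doxycycline. It was the only list of the 30 whose array means did not overlap, with doxycycline lower by 0.032. The margin was narrow, as the lowest vehicle mean was 9.396 and the highest doxycycline mean 9.392. Full separation of 3 against 3 arrays has a two-sided p of 0.1 by an exact permutation test. That p assumes exchangeable arrays, while same-numbered arrays deviated together and some lists share genes. It thus gives no expected rate for the 30 lists. Among single genes, the doxycycline arrays lay fully above in 2.45% and fully below in 1.91%. Over the 74 tested members of RAS84 0 were called, 27 were higher, the median was -0.018 and 66 intervals lay inside ±0.5. One of the signatures behind RAS84 was taken from HCT116 arrays of this study, so this list is no independent evidence of a direction. The MAPK activity score, a set of ERK target genes, had 1 of 10 genes higher and a median of -0.040, and all 10 intervals lay inside ±0.5. DUSP6, the ERK phosphatase, read 9.18, 8.91 and 8.68 against 8.96, 8.79 and 8.61, a difference of -0.14 (-0.44 to 0.17). SPRY4, a feedback inhibitor, differed by -0.014 and PHLDA1 by -0.047. Of 27 immediate early genes 8 were higher, with a median of -0.032. EGR1, a zinc finger factor induced by ERK, differed by -0.23, with all 3 pairs and all 3 probe sets lower. Its interval was -1.16 to 0.71 unpaired and -0.42 to -0.037 paired, with an unadjusted p of 0.0256 in the paired limma fit. FOSL1, a subunit of AP-1, differed by -0.38 (-0.88 to 0.13), with vehicle replicate 2 at 10.8 and every other array between 9.75 and 9.86. MYC differed by -0.001 (-0.16 to 0.15).

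Innate immunity and growth lists were also without a call. The 33 interferon response genes had a median of -0.009, and ISG15, the ubiquitin-like modifier, differed by 0.070 (-0.094 to 0.23). IFIT1 differed by 0.17 (-0.29 to 0.63). NF-kB targets had the lowest median of all, -0.051, with 2 of 11 higher. CXCL8, the chemokine interleukin-8, read between 3.70 and 4.03 on the 6 arrays. It was under 6 in both groups and was tested only through its level in Hke3 or Hkh-2. SOD2, described above, is also on that list. The 33 cell cycle and DNA replication genes had a median of -0.024, and MKI67, the proliferation marker, differed by 0.045 (-0.18 to 0.27). CCNB1, cyclin B1, differed by 0.001 (-0.15 to 0.16). The p53 target CDKN1A, which encodes p21, differed by -0.13 (-0.46 to 0.20), with vehicle replicate 2 at 11.0 and the others between 10.3 and 10.6. All 25 p53 targets tested lay inside ±0.5. BCL2 family, autophagy, drug handling, WNT target, sterol and serine lists had medians between -0.030 and 0.002. FASN, fatty acid synthase, differed by -0.22 (-0.60 to 0.17), with vehicle replicate 2 at 11.6 and the others between 10.9 and 11.0. The 23 tested members of the cytosolic ribosomal protein list had a widest bound of 0.191. That list does not hold RPL27A, described above, whose interval ran from -0.80 to -0.065. The array means of the list were 14.16 to 14.18, while RPL27A read only 9.03 to 9.73. How well its single probe set reads that transcript was not tested.

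Markers of colon epithelium were read in part. EPCAM, an epithelial adhesion protein, read 13.0 to 13.2 on all 6 arrays, and KRT18 read 14.1 to 14.3. KRT20, CDX2 and VIL1 were near 7 or below, and CDH17, LGALS4 and TSPAN8 stayed below 6 on every array. Of 20 fibroblast, immune and endothelium markers 7 were tested. COL1A1 was the brightest of them at 8.33 in vehicle and 8.43 with doxycycline, and the leukocyte marker PTPRC and the endothelial CDH5 read at most 4.20 on any array. The 2 immune markers tested, CD3E and ITGAM, had means between 5.98 and 6.18 and differences of 0.11 and 0.13. In bulk RNA, fewer cells of a type and less RNA per cell cannot be told apart.

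The replicate number separated the arrays more than doxycycline did, and ATF4 response genes were prominent among the genes concerned. Deviations from the group means, taken over all genes, correlated between arrays of the same number at 0.228, 0.212 and 0.453 and between arrays of different numbers at -0.271 to 0.045. CHAC1, which degrades glutathione, read 8.55, 8.63 and 6.98 in vehicle replicates 1, 2 and 3 and 8.40, 8.23 and 6.95 with doxycycline. SLC7A11, the cystine transporter, read 10.65, 9.76 and 8.67 against 10.38, 10.23 and 8.67. ASNS read 12.01, 11.31 and 10.54 against 11.86, 11.55 and 10.55. In all 3 genes replicate 3 was lowest in both groups, and there the treatments differed by 0.04 or less. PCK2, GDF15, STC2, TRIB3 and PSAT1, further targets of ATF4, were likewise lowest in replicate 3 of both groups.

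A test of the replicate number on the 6 arrays, with treatment in the limma fit, called 0 genes (percent called 0). It had 1260 genes at an unadjusted p under 0.05 and a smallest adjusted p of 0.0761. The paired limma fit for doxycycline on the same 6 arrays had 216 genes at an unadjusted p under 0.05. Of the 10 genes with the smallest p between numbers, 7 were on the ATF4 response list. When number 2 was left out of both groups, limma called 75 genes between numbers 3 and 1 (0.584%), 42 lower and 33 higher in number 3. Of the 35 tested ATF4 response genes 18 were among them, all lower in number 3, and the list's median difference was -0.45 beside 0.003 for all genes. The other called genes went in both directions. This contrast was chosen after the values were seen. Means of the 2 treatments differed by more than 1 between numbers in 8 genes, 5 of them on the ATF4 list, while doxycycline minus vehicle reached at most 0.20 in absolute size in that list. Among the immediate early genes EGR1 showed the same order in both groups, at 10.62, 10.14 and 9.57 in vehicle and 10.46, 9.76 and 9.42 with doxycycline. What the numbers stand for in the culture was not tested.

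**Figure D5:**
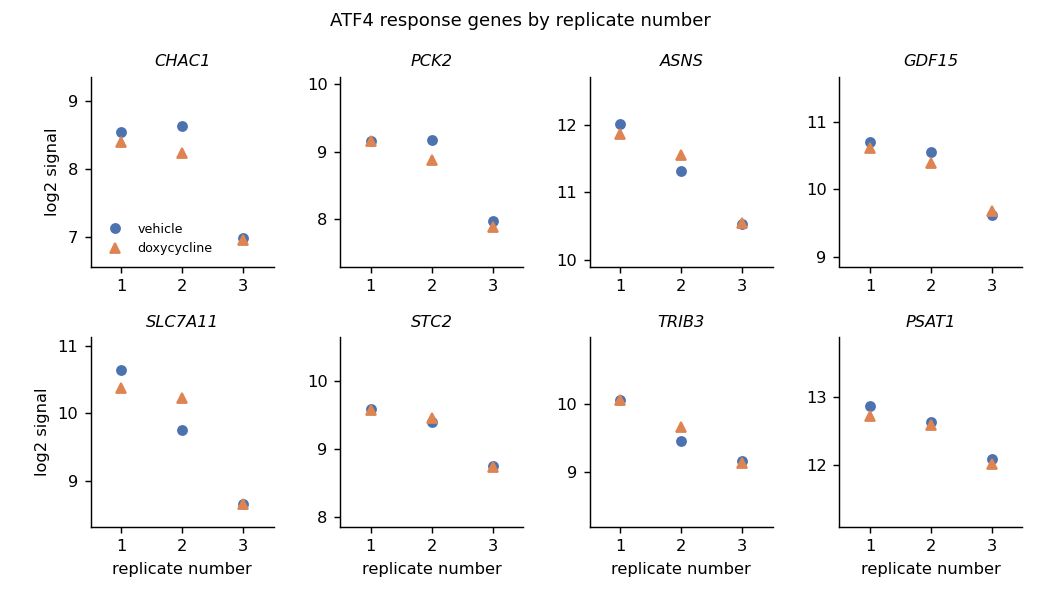
Log2 signal by replicate number for the 8 ATF4 response genes of smallest p between numbers, with vehicle as blue circles and doxycycline as orange triangles, and 1 point per array. Panels span the same range. Replicate 3 is lowest in both treatments in all 8 panels, and the treatments lie close together within each number.

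The recombined lines give a scale only. They differ from the HCT116 arrays in RAS allele and clone, were cultured in basal condition, and have no vehicle or day in their labels. These differences cannot be told apart. With the same fit, limma called 6146 genes (47.8%) between vehicle and Hke3 and 5811 (45.2%) between doxycycline and Hke3. Against Hkh-2 the counts were 4627 (36%) for vehicle and 4734 (36.8%) for doxycycline. These comparisons share their Hke3 or Hkh-2 arrays, and the test of whether vehicle and doxycycline differ is the contrast with 0 calls given above. Vehicle differed from Hke3 by more than 1 in 751 genes and from Hkh-2 in 610, and doxycycline from vehicle in 0. The median absolute difference was 0.247 against Hke3 and 0.194 against Hkh-2, beside 0.054 for doxycycline against vehicle.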

How the data were processed

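RNA of HCT116 control cells with vehicle or doxycycline (3 arrays each) and of Hke3 and Hkh-2 (3 each) was hybridised to 1-colour Affymetrix expression arrays. The deposited values are log2 probe set signals that the authors normalized, by RMA per the submitters' processing notes (version not given in the sources used here), and no further scaling was applied. The number of arrays limits the precision, and an exact permutation test of 3 against 3 could not go below a two-sided p of 0.1.

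Of 54675 probe sets, 41097 name 1 gene in GEO's platform annotation (41043 updated through RefSeq gene IDs), 1801 name several and 11777 are unnamed; the last 2 kinds were left out. The probe set with the highest mean stood for each of 19775 genes, and 12852 with a mean of at least 6 in 1 or more of 4 groups were tested. limma 3.58.1 (R 4.3.3) fitted 4 group means to all 12 arrays; the paired fit used 6 arrays with the replicate number as a block. Same-numbered vehicle and doxycycline arrays deviated together (r = 0.228, 0.212 and 0.453), so the numbers were taken to pair them. The fits were tested on simulated data with normal noise. The simulations held no deviating array, and only the paired fit was given a shared replicate effect. They do not show how the intervals behave with an array like vehicle replicate 2.

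Named were the 6 genes of smallest p in each direction (none was called), the 4 of smallest paired p, the 3 of largest difference among those that did not overlap, marked list members and list members with p under 0.01. Genes named for the replicate number, single low or high arrays or wide intervals, and the extremes of lists, were chosen after their values were seen. The groups, lists and tests were chosen with earlier results of these data known. Alternatives covered the choice of probe set, the filter, scaling, pairing, variance prior and left-out arrays. The RAS gene edited in Hke3 and Hkh-2 is left out here.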

Additional observations from a re-analysis of the deposited data

How the results depend on the processing

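No gene was called higher or lower under any of the 27 alternatives run, so both counts stayed at 0, including with each of the 12 arrays left out in turn (0 to 0). The count at an unadjusted p under 0.05, 127 in the fit to 12 arrays, was 1581 over all 54675 probe sets without a filter, 472 over all 19775 genes without a filter and 35 over the 8332 genes with a mean of at least 8, which test more or fewer features. It was 216 with the replicate block on the 6 arrays and 702 with the block when replicate 2 of both groups was left out, 124 with the block on all 12 arrays, and 301 without vehicle replicate 2 and Hke3 replicate 3. With 1 array left out it ran from 103 to 351, passing 1.5 times the full count without vehicle replicate 1 (217), vehicle replicate 3 (351) or Hke3 replicate 3 (194). Genes inside ±0.5 numbered 51395 over all probe sets and 18906 without a filter, and 7864 with a mean of at least 8, or 94%, 95.6% and 94.4% of those tested, and 11182 to 12492 with 1 array left out. Genes inside ±1 numbered 54617, 19766 and 8320 under the same 3 filters, and 12808 to 12843 with 1 array left out. The simultaneous interval lay inside ±1 for 32345 probe sets, for 14974 genes without a filter and for 6317 with a mean of at least 8. It did so for 5528 genes on the 6 arrays alone and 1765 with the replicate block on them, fits with fewer degrees of freedom, 4203 with the block without replicate 2, and 6609 to 10597 with 1 array left out. Pairing thus changed no call, and the paired fit without replicate 2 called 0 genes as well. Genes differing between replicate numbers were 0 over 3 numbers and 75 between numbers 3 and 1, an alternative added after the data were seen.

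Of the 20 genes named for their p or size, 2 changed sign in 1 alternative each: NHLRC2 (0.28) to -0.0088 with the mean of all its probe sets, and CFAP73 (-0.38) to 0.042 without _x_at and _s_at probe sets. Outside the markers of other cell types, list medians stayed between -0.148 and 0.138 over 29 lists and 26 alternatives; 22 of the 32 lists changed sign at least once and 10 kept it. Of the 106 list members chosen by rule to be named, 87 changed sign in at least 1 alternative, so their differences give bounds and no direction.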
